A study of Mus musculus with 12 samples.

Results

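The 10 genes followed here across 3 mouse cell lines are those that corticotrophs and other neuroendocrine cells use to make, cut and store peptide hormones: Pomc, Tbx19, Pcsk1, Pcsk2, Cpe, Chga, Chgb, Scg2, Scg5 and Neurod1. The genes were chosen by name, with earlier results of these data known, so their counts beside those of all genes are descriptive. All 10 had a target on the array, out of 25128 genes and targets in all. RNA was taken from AtT20 cells, a neuroendocrine line from a mouse pituitary tumor, BV2 cells, a mouse microglial line, and N18 cells, a mouse neuroblastoma line. Each line was grown as 4 separate plates in DMEM with fetal bovine serum, no plate was treated, and each plate was measured on 1 single-color NimbleGen array. The paper states that its BV2 cultures were kept so as to favor a resting state. The 3 lines are tumor-derived or immortalized cells of different mice and tissues, and 1 line of each kind was measured, so a difference between them is a difference between these lines.

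In a corticotroph, Tbx19 (T-pit) and Neurod1 are transcription factors that act on the Pomc gene. In cells that make it, the Pomc precursor is sorted into dense-core granules. There the prohormone convertase encoded by Pcsk1 and, in some of these cells, that encoded by Pcsk2 cut it at pairs of basic residues. The carboxypeptidase encoded by Cpe trims the ends to release ACTH and related peptides. Scg5 encodes 7B2, the chaperone that the Pcsk2 convertase needs to mature. Chga, Chgb and Scg2 encode granins, acidic proteins that fill the core of the granule in pituitary, adrenal medullary, islet and neuronal cells alike.

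The sequence near the start of transcription is shown for the 3 granin genes, which were high together in 1 line, and for Pcsk1, which holds the same element as Chgb and Scg2 but was at background in every line. Each RefSeq window (build GRCm38.p6) runs from 250 bases before to 50 bases after the start of the gene, along the strand of the gene, 5′ to 3′. Capitals mark TGACG on either strand, which is the shortened form of the cAMP response element, and the full element reads TGACGTCA and holds the short form on both strands.
Chga (chr12:102554691-102554990, plus strand): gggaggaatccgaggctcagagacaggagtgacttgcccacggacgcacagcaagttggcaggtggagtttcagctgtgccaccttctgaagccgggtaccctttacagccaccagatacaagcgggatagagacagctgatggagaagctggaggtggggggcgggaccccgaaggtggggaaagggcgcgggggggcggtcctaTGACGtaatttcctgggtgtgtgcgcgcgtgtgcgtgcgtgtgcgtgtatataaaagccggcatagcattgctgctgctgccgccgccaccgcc
Chgb (chr2:132781392-132781691, plus strand): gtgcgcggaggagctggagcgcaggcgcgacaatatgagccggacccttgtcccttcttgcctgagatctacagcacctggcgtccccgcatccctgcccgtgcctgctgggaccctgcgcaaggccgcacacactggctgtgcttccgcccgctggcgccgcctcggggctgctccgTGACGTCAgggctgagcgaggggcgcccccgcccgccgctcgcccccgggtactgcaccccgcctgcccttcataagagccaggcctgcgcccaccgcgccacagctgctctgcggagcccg
Scg2 (chr1:79439977-79440276, minus strand): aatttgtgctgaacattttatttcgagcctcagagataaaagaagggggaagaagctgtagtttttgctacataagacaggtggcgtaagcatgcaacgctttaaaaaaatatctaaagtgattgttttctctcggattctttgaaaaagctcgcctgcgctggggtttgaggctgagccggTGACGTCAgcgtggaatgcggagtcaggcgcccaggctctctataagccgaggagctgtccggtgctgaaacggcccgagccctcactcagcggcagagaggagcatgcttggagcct
Pcsk1 (chr13:75089607-75089906, plus strand): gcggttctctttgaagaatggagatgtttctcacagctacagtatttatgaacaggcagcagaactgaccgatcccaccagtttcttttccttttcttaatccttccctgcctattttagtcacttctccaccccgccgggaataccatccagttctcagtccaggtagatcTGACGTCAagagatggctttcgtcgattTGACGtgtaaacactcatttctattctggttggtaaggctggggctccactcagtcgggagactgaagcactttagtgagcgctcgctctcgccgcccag
A window was found for 9 of the 10 genes, and Cpe had none. The full element was in 3 of the 9, starting at −72 in Chgb, −68 in Scg2 and −78 in Pcsk1, against 1.79% of 32851 mouse promoter windows of the same length. Chga had the short form only, starting at −44, as did Pcsk2 (−34) and Scg5 (−175, 20 and 41). The short form on either strand was thus in Pcsk1, Pcsk2, Chga, Chgb, Scg2 and Scg5 and in 20.8% of all windows. The letters TATAAA, the core of a TATA box, started at −25 in Pomc and at 6 in Chga and were in 13.6% of all windows. The E-box letters CAGGTG were in Pomc, Tbx19, Chga, Chgb, Scg2 and Scg5 and in 20.2% of all windows. These matches describe letters in the windows and nothing more.

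Levels are on the log2 scale: the probes of a gene were averaged on the linear scale for each plate, and the mean of 10 seminal proteins, taken as genes that these cells do not express, was subtracted. A gene was called detected when its level, averaged over 4 plates, exceeded 2 SD of the seminal proteins. That threshold was 0.37 ± 0.11 (SD, n = 4) on the AtT20-labelled plates, 0.56 ± 0.15 (SD, n = 4) for BV2 and 0.74 ± 0.10 (SD, n = 4) for N18. A gene below it was not measured above background, which does not show that its mRNA is absent. Of 7 genes listed as markers of all cells, 6 were detected in each line. The remaining gene, Rplp0, which encodes a ribosomal protein, was below the threshold in the 3 lines. Probes of different genes differ in brightness, so levels were compared between lines and not between genes.

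The arrays of the AtT20-labelled plates stood apart from the rest. Their median was 10.85 to 11.50 (log2 intensity), against 9.90 to 10.28 for BV2 and 10.10 to 10.54 for N18, and their interquartile range was 0.38 to 0.78, against 1.28 to 1.73 and 1.91 to 2.21. Differences from AtT20 moved with the scaling more than others, and the values on other scales are given beside them. Each slide carries 4 arrays, and since the sources used here do not say which plates shared one, slide and line cannot be told apart. The marker counts below stand beside the shares of all genes and targets detected: 53.3% in BV2, 55.4% in N18 and 35.0% on the AtT20-labelled plates. Of 11 microglial marker genes with probes, 10 were detected in BV2, 3 in N18 and 1 on the AtT20-labelled plates. Of 12 markers of sympathetic neuroblasts, 10 were detected in N18, 6 in BV2 and 7 on the AtT20-labelled plates. The 12 corticotroph markers are the 10 genes followed here with Pitx1 and Crhr1, so they are no separate check of the set. Of these 12, Cpe, Scg5 and Pitx1 passed on the AtT20-labelled plates. The rest, among them the defining corticotroph genes Pomc, Tbx19 and Neurod1, did not, which went against the label of these plates. Of the same 12 markers, 8 were detected in N18 and 2 in BV2. The part of the narrow range in these counts was not tested. Each value averages all cells of a plate, so fewer cells with an mRNA and less of it per cell cannot be told apart.

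The granin genes, Cpe and Scg5 were detected in N18, while the convertase genes were not. Of the 10 genes, 6 were detected in N18 (Tbx19, Cpe, Chga, Chgb, Scg2 and Scg5), where 55.4% of all genes and targets were detected. In BV2, 2 of 10 were detected (Pomc and Tbx19), against 53.3% of all. On the AtT20-labelled plates, 2 of 10 were detected (Cpe and Scg5), against 35.0% of all. Pcsk1, Pcsk2 and Neurod1 were detected in no line, and no gene of the set was detected in all 3. When at least 2 probes of a gene had to lie above the threshold, 6 were detected in N18 and 2 in BV2 as before, and 0 on the AtT20-labelled plates.

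**Figure D1:**
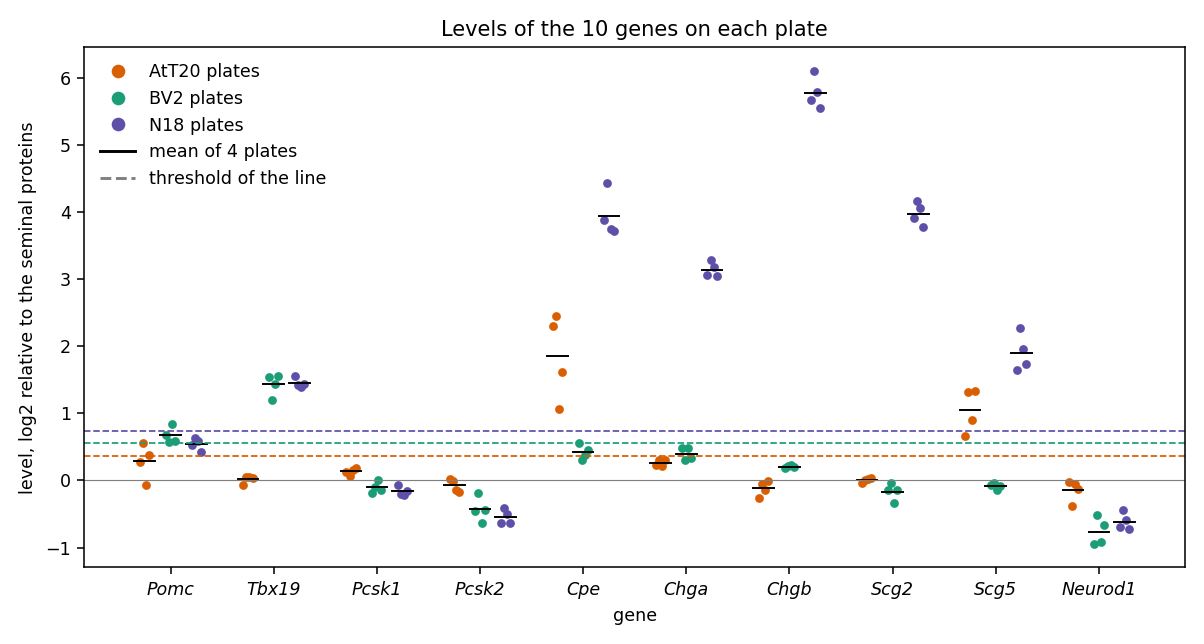
Each point is 1 plate: the level of a gene (y axis, log2 relative to the 10 seminal proteins) for the 10 genes (x axis) in AtT20, BV2 and N18, with black bars for the mean of 4 plates and dashed lines for the threshold of each line. The N18 points of Cpe, Chga, Chgb and Scg2 lie above all points of the other lines, the AtT20 points of Cpe and Scg5 lie between N18 and BV2, and Pcsk1, Pcsk2 and Neurod1 lie below the thresholds throughout.

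Pomc encodes the hormone precursor itself. Its level on plates 1 to 4 was 0.27, 0.56, −0.06 and 0.38 on the AtT20-labelled plates, 0.68, 0.58, 0.84 and 0.59 for BV2, and 0.53, 0.63, 0.59 and 0.42 for N18. Every value is within 1 log2 unit of the seminal proteins, and the mean passed the threshold in BV2 alone, at 0.67 ± 0.12 (SD, n = 4). That call was lost with olfactory receptor genes as controls, with 3 SD in place of 2, and with Svs3b, a second seminal gene, among the controls, a choice made after the data were seen. On the AtT20-labelled plates Pomc and Chga did pass when the highest seminal protein was left out of the controls. The 3 Pomc probes gave 11.02, 11.15 and 11.50 (mean log2 intensity) on the AtT20-labelled plates, where the seminal proteins averaged 10.95. Only the third of these probes was higher there than in the other lines after quantile normalization, by 0.93 over BV2 (adjusted p = 1.29e-04, limma over 72000 probes) and by 1.09 over N18 (adjusted p = 2.4e-05). The other 2 probes did not differ between any pair of lines at an adjusted p under 0.05.

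Tbx19, the T-box factor of corticotrophs, was at the seminal level on the AtT20-labelled plates, with −0.06, 0.05, 0.05 and 0.03. In BV2 it was 1.54, 1.20, 1.44 and 1.55, and in N18 1.56, 1.42, 1.39 and 1.44. All 3 of its probes lay above the threshold in BV2 and in N18 and none on the AtT20-labelled plates, and the BV2 and N18 plates overlapped. In N18 the call was lost with olfactory receptor genes as controls. Neurod1, a basic helix-loop-helix factor of corticotrophs, islet cells and neurons, averaged −0.14 ± 0.16 on the AtT20-labelled plates, −0.76 ± 0.20 in BV2 and −0.61 ± 0.13 in N18 (SD, n = 4 each). None of its 3 probes passed in any line.

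The convertase genes were at background in all 12 arrays. Pcsk1, whose product makes the first cuts in the precursor, ranged from 0.07 to 0.18 on the AtT20-labelled plates, from −0.19 to 0.01 in BV2 and from −0.21 to −0.07 in N18. Pcsk2, whose product makes the later and smaller peptides, ranged from −0.16 to 0.03, from −0.63 to −0.19 and from −0.64 to −0.41 in the same order. No probe of either gene passed the threshold in any line, so the AtT20-labelled plates lie highest for both genes only within the background.

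Cpe, the carboxypeptidase, was detected in N18 with 3 of 3 probes. Its level was 3.88, 4.44, 3.75 and 3.72 in N18, 2.30, 2.46, 1.06 and 1.61 on the AtT20-labelled plates, and 0.55, 0.30, 0.39 and 0.45 in BV2. The 3 lines did not overlap on this scale, and BV2 (0.42 ± 0.11, SD, n = 4) stayed below its threshold. The detection on the AtT20-labelled plates came from 1 probe of 3 and was lost with the median of the probes. That probe read 14.45, 14.67, 13.63 and 13.67 (log2 intensity) there and 14.60, 14.81, 14.06 and 14.52 in N18, so the raw intensities of the lines overlapped. After subtraction of the seminal protein mean the N18 plates lay above the AtT20-labelled plates in this probe too. The other 2 probes averaged 10.72 and 10.84 on the AtT20-labelled plates, below the seminal proteins, and 12.03 and 12.84 in N18. In BV2 the same first probe was the only one above the threshold, with a mean of 10.77.

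With this summary of the probes, the granin genes were detected in N18 cells alone, each with 3 of 3 probes. Chgb, which encodes chromogranin B, was 5.67, 6.10, 5.79 and 5.54 in N18. On the AtT20-labelled plates it was −0.26, −0.06, −0.15 and −0.01, and in BV2 0.19, 0.21, 0.24 and 0.19. Its first probe read 15.79 to 15.98 in N18, next to the highest value on the arrays (16.00). Scg2, the gene of secretogranin II, was 3.91, 4.17, 4.06 and 3.77 in N18, with means of 0.01 ± 0.03 on the AtT20-labelled plates and −0.17 ± 0.12 in BV2 (SD, n = 4 each). Chga, the gene of chromogranin A, was 3.06, 3.28, 3.18 and 3.04 in N18, with means of 0.26 ± 0.05 and 0.40 ± 0.09 in the same order. For each granin gene the lowest N18 plate was above the highest plate of both other lines. On the AtT20-labelled plates 2 of the 3 Chga probes lay above the threshold, and with the median of the probes Chga was detected there, at 0.40.

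Scg5, the chaperone gene, was detected through different probes in the 2 lines that carried it. Its level was 1.65, 2.28, 1.96 and 1.74 in N18, 0.66, 1.32, 0.90 and 1.33 on the AtT20-labelled plates, and between −0.15 and −0.04 in BV2. Probe 1 read 12.26, 13.32, 13.44 and 13.32 (log2 intensity) on the AtT20-labelled plates, and 9.99, 9.74, 9.72 and 10.14 in N18. Probes 2 and 3 went the other way, with means of 10.71 and 10.81 on the AtT20-labelled plates and 11.98 and 11.76 in N18. After quantile normalization probe 1 was lower in N18 than on the AtT20-labelled plates by 3.15 on the log2 scale (adjusted p = 1.92e-09, limma), while probes 2 and 3 were higher by 1.90 and 1.46. With the median of the probes the call was lost on the AtT20-labelled plates and kept in N18. The probe sequences were not used here, so which transcripts each probe covers was not tested.

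**Figure D2:**
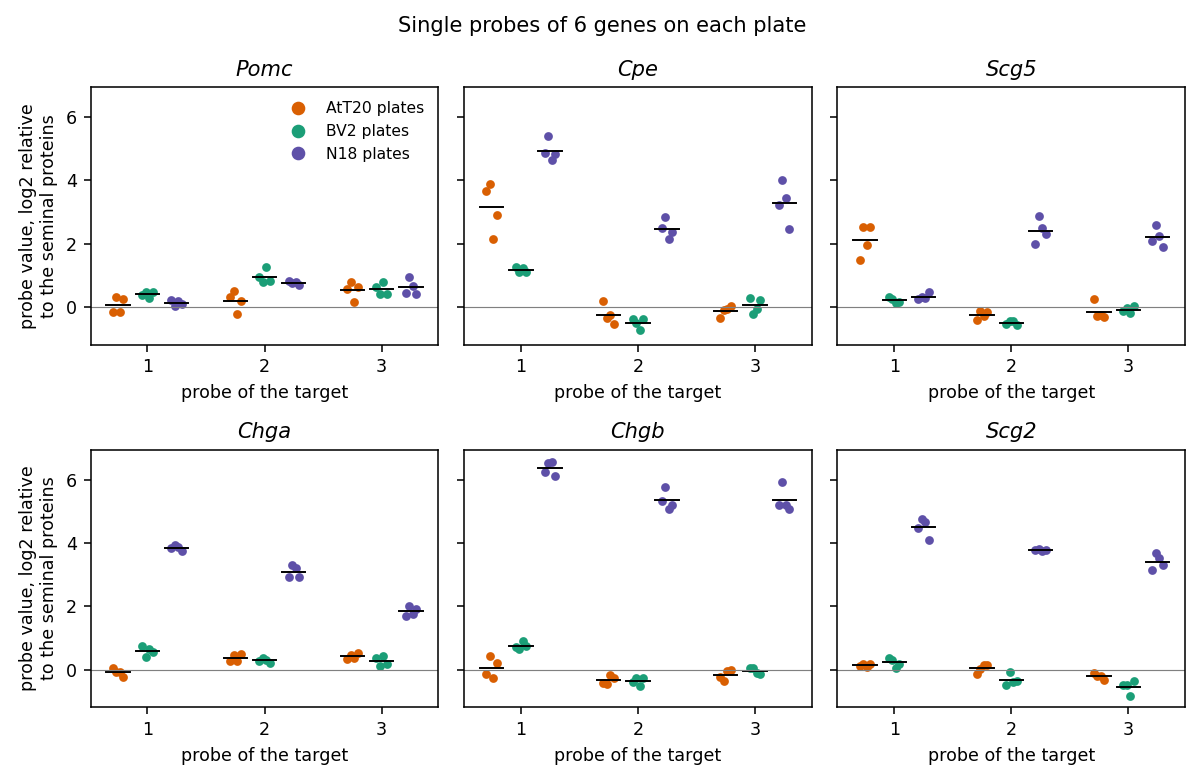
Each panel shows 1 gene, with its 3 probes on the x axis and the probe value relative to the 10 seminal proteins of the plate on the y axis (log2), a point for each plate and a black bar for the mean of 4 plates. All 3 probes of Chga, Chgb and Scg2 are high in N18 alone, probe 1 of Cpe and of Scg5 is high on the AtT20-labelled plates while their probes 2 and 3 are not, and all Pomc probes lie near the seminal proteins.

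Of the 10 genes, 5 were higher in N18 than in BV2: Chgb, Scg2, Cpe, Chga and Scg5. The comparison asks whether the neuroblastoma line differs from the microglial line, and it was made with limma on quantile-normalized levels, with p values adjusted over 25128 genes and targets. As each was below its threshold in BV2, a fold is a lower bound, taken against that threshold as the smallest of 3 scales. Where an alternative gave a smaller difference of means, that difference was used, with no threshold applied. This was so for Cpe and Chga, whose folds on the 3 scales were 6.2 and 3.4. Chgb was at least 24.8-fold higher, and its measured means differed by 4.95 on the log2 scale (adjusted p = 9.78e-14, limma), with 1 N18 probe near the top of the scale. Scg2 was higher by 3.25 (adjusted p = 1.49e-12, limma), at least 6.1-fold. The difference of Cpe was 2.78 (adjusted p = 4.9e-12, limma), at least 5.0-fold. Chga (1.92, adjusted p = 7.13e-10, limma) and Scg5 (1.28, adjusted p = 9.08e-06, limma) were higher by at least 3.3-fold and 1.6-fold. These 5 genes were higher in 4 of 4 N18 plates than in any BV2 plate, and each kept its sign and its call in 11 of 11 alternatives and with any 1 of the 8 plates of these lines left out.

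Tbx19 was lower in N18 than in BV2 by 0.38 after quantile normalization (adjusted p = 0.0146, limma), but the difference was 0.02 relative to the seminal proteins. The difference was −0.31 for Pomc (adjusted p = 0.134), −0.08 for Pcsk1 (adjusted p = 0.572), −0.11 for Pcsk2 (adjusted p = 0.416) and 0.13 for Neurod1 (adjusted p = 0.374, limma), with 95% intervals of −0.65 to 0.03, −0.31 to 0.14, −0.32 to 0.10 and −0.10 to 0.37. The 5 of 10 that were higher compare with 19.0% of all genes and targets, and the 1 of 10 that was lower with 21.9%. Relative to the seminal proteins the shares of all genes and targets were 38.8% higher and 13.1% lower, and 5 of 10 and 0 of 10 genes of the set were called. Among all calls 46.5% were higher in N18 with quantile normalization, 74.7% against the seminal proteins and 80.2% with none. The median difference over all genes and targets was −0.06, 0.18 and 0.15 in the same order.

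N18 cells were compared with the AtT20-labelled plates in the same fit. The granin genes were higher in N18: Chgb by 5.11 (adjusted p = 7.63e-14), Scg2 by 2.74 (adjusted p = 6.37e-12) and Chga by 1.26 (adjusted p = 4.11e-08, limma). Relative to the seminal proteins the differences were 5.89, 3.97 and 2.88. The lower bounds against AtT20 are 14.8-fold, 3.6-fold and 1.9-fold, and the calls held in 11 of 11 alternatives and with any 1 of the 8 plates left out. By probe, Chga differed by 2.86, 0.94 and −0.20, and the last of these was not called (adjusted p = 0.273, limma over 72000 probes). Cpe was higher by 0.48 (adjusted p = 9.08e-04, limma) and by 2.09 relative to the seminal proteins. Its probe 1 differed by 0.09 (adjusted p = 0.591, limma) and its probes 2 and 3 by 1.82 and 2.36. Tbx19 was higher by 0.52 (adjusted p = 7.07e-04, limma) and by 0.04 without normalization. Scg5 had no settled direction: it was lower in N18 by 0.81 (adjusted p = 3.03e-04, limma) after quantile normalization, but 0.85 higher relative to the seminal proteins, 0.07 higher with the mean of log2 probes and 1.29 higher with the median of the probes.

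In all, 5 of 10 genes were called higher in N18 than on the AtT20-labelled plates, where 27.8% of all genes and targets were, and 5 of 10 were called lower, where 48.6% were. Of the 5 lower genes, 4 were below the threshold in both lines, namely Pomc (−0.63, adjusted p = 0.00186), Pcsk1 (−0.91), Pcsk2 (−0.62) and Neurod1 (−0.51, limma). Relative to the seminal proteins Pomc was 0.25 higher instead, and 6 of 10 genes of the set were called higher in N18 and 3 lower, against 60.7% and 16.3% of all genes and targets. The median difference over all genes and targets was −0.25 with quantile normalization, 0.54 against the seminal proteins and −0.85 with none, and 36.4%, 78.8% and 24.0% of all calls were higher in N18 in the same order.

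BV2 cells differed from the AtT20-labelled plates in 3 detected genes. Cpe was lower in BV2 by 2.29 (adjusted p = 2.49e-11, limma) and Scg5 was lower by 2.09 (adjusted p = 8.92e-09, limma), relative to the seminal proteins by differences of −1.43 and −1.14. In both genes the difference was that of probe 1 (−3.02 for Cpe and −3.12 for Scg5), and with the median of the probes the differences were −0.31 and −0.20 and neither was called, so no fold is given. Tbx19 was higher in BV2 by 0.90 (adjusted p = 3.02e-06, limma) and by 1.41 relative to the seminal proteins, but by 0.05, with no call, without normalization. Pomc, detected in BV2 alone, differed by −0.32 (adjusted p = 0.0797, limma), and relative to the seminal proteins it was 0.38 higher in BV2. Counts were 1 of 10 higher, against 26.6% of all genes and targets, and 7 of 10 lower, against 47.0%. Relative to the seminal proteins they were 2 of 10 against 50.4% and 5 of 10 against 17.6%. Of all calls 36.2% were higher in BV2 with quantile normalization, 74.2% against the seminal proteins and 13.6% with none. The median difference over all genes and targets was −0.23, 0.28 and −1.08 in the same order.

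**Figure D3:**
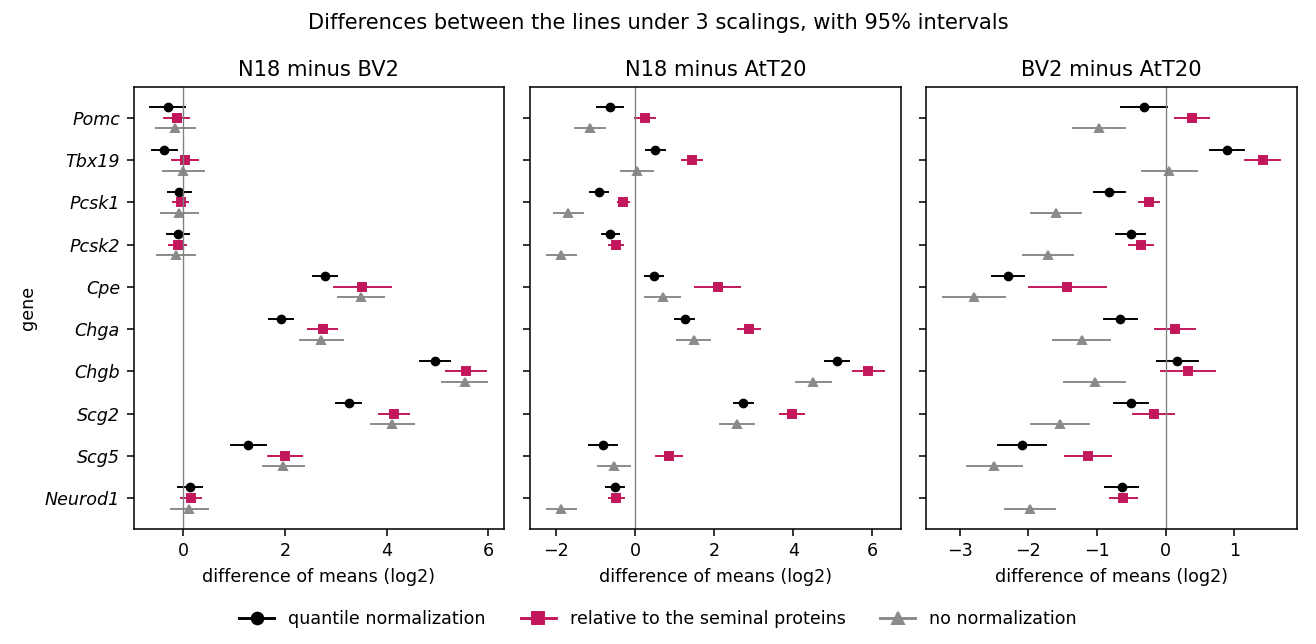
Differences of means between lines (x axis, log2) for the 10 genes (y axis), in 1 panel for each pair of lines, with 95% intervals from limma on quantile-normalized levels (black circles), on levels over the seminal proteins (red squares) and on unnormalized levels (grey triangles). For N18 minus BV2 Chgb, Scg2, Cpe, Chga and Scg5 are to the right of 0 on each scale, with the smallest value under quantile normalization. In the panels with AtT20 the Scg5 value of N18 minus AtT20 changes sign.

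The patterns of the granin genes resembled each other over the 12 arrays, which share 3 lines and are not independent points. After quantile normalization Pearson's r was 0.980 between Chgb and Scg2, 0.976 between Chga and Scg2 and 0.918 between Chga and Chgb. Many other genes were closer. By rank of r, Scg2 was 70 and Chgb 499 for Chga, Scg2 125 and Chga 671 for Chgb, and Chgb 125 and Chga 175 for Scg2. Among 12169 other named genes detected in at least 1 line, the closest to Chgb were Tspyl4 (r = 0.999), Baiap2l1 and Atp6v0e2. The closest to Chga were Mtus1, Kif5c and Arfgef3, and to Scg2 Asz1, Mest and Ctnna2. Cpe was most like Cnn3 (r = 0.998), Sox4 and Schip1, which were also intermediate on the AtT20-labelled plates, with levels of 3.05, 1.97 and 2.02 there, 0.80, 0.25 and 0.55 in BV2 and 5.14, 4.18 and 4.25 in N18. Scg5 was most like Phactr3, Pcgf3 and Fam216a, Tbx19 most like Pou2af1, Eola1 and Rgs19, and Pomc most like Txndc2, Slc22a23 and Olfr401. Such values describe which genes were high in the same line.

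Other genes of dense-core granules were counted from a list of 25, of which 23 had probes. This list and those below were also written with earlier results of these data known. Detected were 16 of 23 in N18 (55.4% of all genes and targets), 11 in BV2 (53.3%) and 12 on the AtT20-labelled plates (35.0%), and 15, 10 and 9 with at least 2 probes. Between N18 and BV2, 9 of 23 were higher in N18 (19.0% of all genes and targets) and 4 were lower (21.9%), and the median difference of the list was 0.09 against −0.06 over all. The counts relative to the seminal proteins were 12 (38.8% of all) and 2 (13.1% of all). Scg3, which encodes the granin that binds Chga to the granule membrane, was higher in N18 by 3.89 (adjusted p = 1.29e-13, limma). Ptprn, which encodes the granule membrane protein IA-2, was at least 12-fold higher on 3 scales (adjusted p = 1.04e-12, limma), and its level was 4.83 ± 0.04 in N18, 0.56 ± 0.24 in BV2 and 0.13 ± 0.06 on the AtT20-labelled plates (SD, n = 4 each). Vgf, the gene of a granin-like precursor, was higher by 1.98 (adjusted p = 1.67e-09, limma) and was detected in the 3 lines, at 5.20 ± 0.06 in N18, 2.75 ± 0.33 in BV2 and 0.68 ± 0.22 on the AtT20-labelled plates (SD, n = 4 each). Hid1, whose product serves granule formation at the Golgi, was higher by 2.00 (adjusted p = 1.17e-09, limma). Rph3a, a Rab3 and Rab27 effector, was lower in N18 by 0.61 (adjusted p = 0.00895, limma), and relative to the seminal proteins its difference was −0.19 (adjusted p = 0.436).

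Several genes of this list were detected on the AtT20-labelled plates. Insm1, a zinc finger factor of neuroendocrine cells, had a level of 3.05 ± 0.57 there, 0.19 ± 0.03 in BV2 and 3.06 ± 0.24 in N18 (SD, n = 4 each). After quantile normalization it was lower in N18 than on the AtT20-labelled plates by 1.69 (adjusted p = 1.58e-09, limma), but relative to the seminal proteins adjusted p was 0.996. Cadps2, which encodes a priming factor of granule release, had 2.09 ± 0.64 there, with 3 of 3 probes above the threshold, against 0.03 ± 0.04 in BV2 and 0.11 ± 0.12 in N18 (SD, n = 4 each). Cadps2 was higher on the AtT20-labelled plates than in BV2 by at least 2.8-fold (adjusted p = 1.94e-13, limma) and than in N18 by at least 2.5-fold (adjusted p = 1.96e-13, limma), as the smallest of 3 scales. Pcsk1n, the gene of the Pcsk1 inhibitor proSAAS, was detected in the 3 lines, at 1.19 ± 0.37 on the AtT20-labelled plates, 0.60 ± 0.23 in BV2 and 2.22 ± 0.10 in N18 (SD, n = 4 each). The BV2 call was marginal, with 1 probe above the threshold of 0.56. Pcsk1, the target of proSAAS, was detected in none of the 3 lines.

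**Figure D4:**
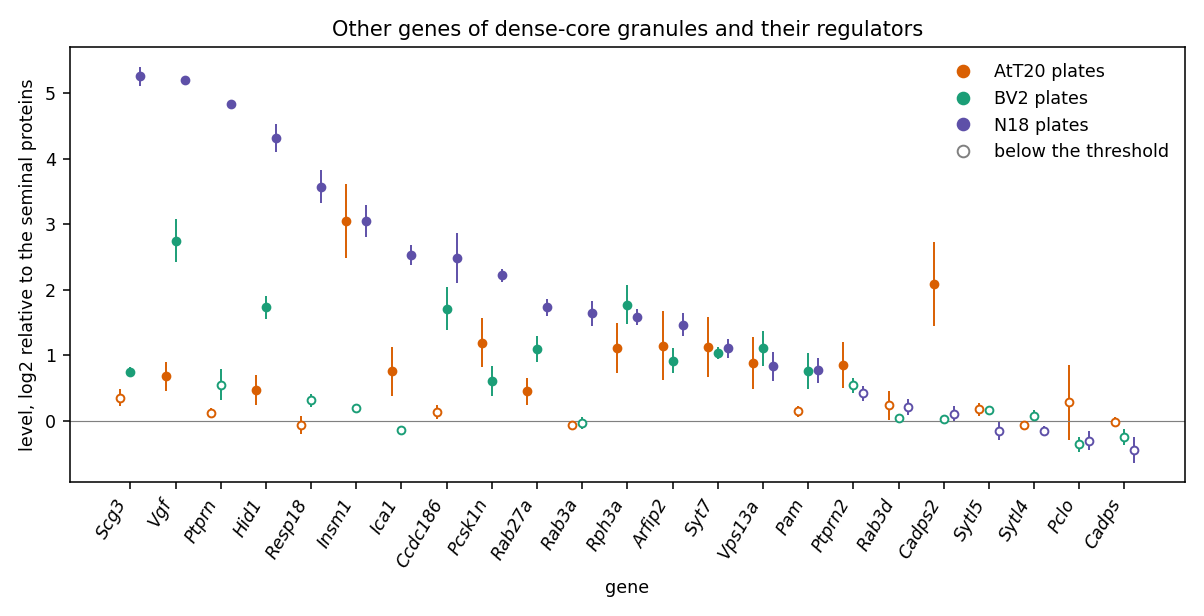
Mean level (y axis, log2 relative to the 10 seminal proteins) of the 23 listed dense-core granule genes with probes (x axis, ordered by the N18 mean), with bars of 1 SD over 4 plates and open symbols below the threshold of the line. Scg3, Vgf, Ptprn and Hid1 are higher in N18 than in the other lines, Insm1 is above the threshold in N18 and AtT20, and Cadps2 is above it on the AtT20-labelled plates alone. Levels of different genes cannot be ranked.

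Of 15 listed genes with probes for other convertases, carboxypeptidases and proteases of the secretory and lysosomal route, 12 were detected in BV2, 10 in N18 and 5 on the AtT20-labelled plates, against 53.3%, 55.4% and 35.0% of all genes and targets. Between N18 and BV2, 1 of 15 was higher (Mbtps1, the site-1 protease gene) and 7 were lower, against 19.0% and 21.9% of all, with a median difference of −0.39 against −0.06 over all genes and targets. The lower genes included the lysosomal cathepsin genes Ctsl (−1.92, adjusted p = 1.19e-09) and Ctsb (−1.55, adjusted p = 1.13e-06) and Cpd, a carboxypeptidase gene of the Golgi (−1.83, adjusted p = 1.04e-08, limma). Furin, the gene of the convertase of the constitutive route, was detected in the 3 lines, at 0.73 ± 0.35 on the AtT20-labelled plates, 2.28 ± 0.18 in BV2 and 2.46 ± 0.19 in N18 (SD, n = 4 each). On the AtT20-labelled plates 1 of its probes lay above the threshold. Furin was lower in N18 than in BV2 by 0.40 after quantile normalization (adjusted p = 0.0118, limma), while relative to the seminal proteins it was higher by 0.18 (adjusted p = 0.493).

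A list of 42 genes was drawn around corticotrophs and the pituitary, and not all of them, Pitx3 among these, are particular to such cells. Of the 42, 19 were detected on the AtT20-labelled plates, 15 in BV2 and 17 in N18, against 35.0%, 53.3% and 55.4% of all genes and targets. With at least 2 probes the counts were 12, 13 and 14. Crhr1, the receptor through which corticotropin-releasing hormone acts on corticotrophs, was detected in N18 alone, with a level of 3.16 ± 0.16 there, 0.09 ± 0.08 on the AtT20-labelled plates and 0.24 ± 0.10 in BV2 (SD, n = 4 each). It was at least 3.4-fold higher in N18 than in BV2 (adjusted p = 6.54e-10, limma), as the smallest of 3 scales. Named by the level rule for the AtT20-labelled plates were the homeobox genes Pax6 (3.20 ± 0.47), Six3 (2.94 ± 0.63) and Pitx3 (2.72 ± 0.67, SD, n = 4 each). Pax6 was higher there than in BV2 by at least 6.2-fold (adjusted p = 6.65e-14, limma). Against N18 its difference, N18 minus AtT20, was −2.77 after quantile normalization and −1.32 relative to the seminal proteins. For Six3 the same 2 values were −3.09 and −1.61 against N18 and −3.03 and −1.96 against BV2, and for Pitx3 they were −2.95 and −1.64 against N18 and −2.56 and −1.55 against BV2. All were called on both scales. Between N18 and BV2, 7 of the 42 genes were higher and 7 lower, against 19.0% and 21.9% of all genes and targets, and relative to the seminal proteins 14 were higher and 6 lower, against 38.8% and 13.1%. Nr3c1, the glucocorticoid receptor gene, was detected in BV2 (1.80 ± 0.37) and in N18 (2.62 ± 0.19) and not on the AtT20-labelled plates (0.09 ± 0.16, SD, n = 4 each).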

How the data were processed

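RNA from 4 plates each of AtT20, BV2 and N18 was measured on 12 single-color arrays. The deposited values are log2 Cy3 intensities of 72000 probes, which the authors made with NimbleScan. No background subtraction or normalization was found in them, and the arrays of the human line were not analysed here. Symbols were found for 69.4% of 25631 targets, and the targets of a gene were averaged, which left 25128 genes and targets. Levels and thresholds follow the methods of the paper, with probes averaged on the linear scale. Differences between lines came from lmFit and eBayes (trended prior variance) of limma 3.58.1, run in R 4.3.3 on quantile-normalized values, with p values adjusted by Benjamini-Hochberg and called under 0.05. A fold is given only where 1 line of a pair was below its threshold, as the smallest distance from that threshold on 3 scales. For the 10 genes it was lowered further where an alternative gave a smaller difference of means, with no threshold applied. This rule was chosen after seeing the data. Data were simulated for N18 against BV2 (25128 genes, 200 of them changed). Of the genes changed by 1 on the log2 scale 98% were recovered, and of those changed by 0.5 81.5%, with 7.11% and 4.12% false calls. All simulated arrays had the N18 means and SDs and were not normalized, so the effect of unlike intensity ranges between lines was not simulated. Named are the 10 genes, at most 3 detected genes of highest level per list and line and the 3 genes of most similar pattern. Other genes (Rplp0, Pitx1, Svs3b) were named after their values were seen. The members and the lists were chosen with earlier results of these data known. Alternatives for detection were the scale and summary of the probes, quantile normalization, other control genes, 3 SD, all 4 plates, at least 2 probes, the highest target and each plate left out. Alternatives for the comparisons were the normalization, a normexp background correction, the probe summary, a filter, a minimum difference, a replicate block, the arrays in the fit, array weights, the highest target and each plate left out. Promoter sequences are from RefSeq (GRCm38.p6). The remaining steps used Python 3.11.15 with pandas 2.3.3, numpy 2.4.6 and matplotlib 3.10.9. The number of arrays limits the precision.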

Additional observations from a re-analysis of the deposited data

How the results depend on the processing

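The genes detected on the AtT20-labelled plates, 2 of 10, were 1 with the median of the probes, 4 without the highest seminal protein and 0 with at least 2 probes above the threshold, and Scg5 there was at −0.049 with the median. On the BV2 plates 2 became 1 with olfactory receptor genes as controls, with 3 SD and with Svs3b added. The 6 detected in N18 were 5 with olfactory receptor genes as controls and 6 in the other alternatives run. With each plate left out, 2, 2 and 6 genes were detected (range 2 to 2, 2 to 2 and 6 to 6). Of the differences, the 5 higher in N18 than in BV2 were 6 with array weights and 5 in the other alternatives, and 5 to 5 with a plate left out. The 1 lower in N18 than in BV2 was 0 without normalization, relative to the seminal proteins, with a difference of at least 1 and with 2 single probes (added after seeing the data), and 2 with array weights and with the 8 arrays of the pair (1 to 1 with a plate left out). Against AtT20, the 5 higher in N18 were 6 relative to the seminal proteins. They were 4 without normalization and 3 with a difference of at least 1. By single probes Scg5 was called higher in N18 with probes 2 and 3 and lower with probe 1. The 5 lower in N18 were 3 relative to the seminal proteins, with the median and with 2 single probes. They were 2 with the filter on genes above the threshold and 0 with a difference of at least 1. Both counts were 5 to 5 with a plate left out. The 1 higher in BV2 was 2 relative to the seminal proteins. It was 0 without normalization and with a difference of at least 1 (1 to 1 with a plate left out). The 7 lower in BV2 were 9 without normalization and 5 relative to the seminal proteins. They were 4 with the filter and 2 with a difference of at least 1 (7 to 8). The filter drops Pcsk1, Pcsk2 and Neurod1, which were detected in no line, so those genes were not tested with it. Signs reversed for Chgb in BV2 minus AtT20 without normalization (−1.04), relative to the seminal proteins for Pomc (0.38) and Chga (0.14) in BV2 minus AtT20, Pomc (0.25) and Scg5 (0.85) in N18 minus AtT20 and Tbx19 in N18 minus BV2 (0.023), and for Scg5 in N18 minus AtT20 with the mean of log2 probes (0.069) and the median (1.29). The cause was not tested.

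With the replicate number as a block the counts of the set were 5 higher and 1 lower for N18 against BV2, 5 and 5 for N18 against AtT20 and 1 and 7 for BV2 against AtT20, as without it, and over all genes and targets 4779 were higher and 5329 lower in N18 than in BV2. Deviations of plates with the same number correlated between −0.105 and 0.319, so the numbers were not taken to pair the plates. Over all genes and targets, N18 against BV2 gave 4775 higher and 5495 lower after quantile normalization, 9754 and 3296 relative to the seminal proteins, 7714 and 1905 with no normalization, 6956 and 9058 with array weights, 6492 and 9062 with the 8 arrays and 1378 and 1093 with a difference of at least 1. N18 against AtT20 gave 6981 and 12211, 15255 and 4094 relative to the seminal proteins, 7046 lower with the filter, and 3312 and 4571 with a difference of at least 1. BV2 against AtT20 gave 6687 and 11808, 12668 and 4413 relative to the seminal proteins, 2940 and 18762 unnormalized, 7042 lower with the filter and 3153 and 3949 with a difference of at least 1. Signal over background limits detection in every line.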

Other observations

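Of 47 other genes of peptide hormone and neuropeptide precursors, 14 were detected on the AtT20-labelled plates, 17 in BV2 and 14 in N18, against 35.0%, 53.3% and 55.4% of all genes and targets. Between N18 and BV2, 4 of 47 were higher in N18 (19.0% of all genes and targets) and 10 were lower (21.9%), with a median difference of −0.14 against −0.06 over all. Relative to the seminal proteins 9 were higher (38.8% of all) and 4 lower (13.1%), so the balance depends on the scaling. Npy, the gene of neuropeptide Y, was detected in the 3 lines with 3 of 3 probes, at 1.76 ± 0.48 on the AtT20-labelled plates, 1.33 ± 0.20 in BV2 and 4.00 ± 0.19 in N18 (SD, n = 4 each). It was higher in N18 than in BV2 by 1.93 (adjusted p = 2.8e-09, limma). Cartpt, the gene of the CART peptide precursor, was detected in N18 alone, at 1.70 ± 0.08 (SD, n = 4), and was at least 1.4-fold higher than in BV2 on 3 scales (adjusted p = 1.03e-07, limma). Ghrh, the gene of growth hormone-releasing hormone, had 3.21 ± 0.32 in BV2, 3.17 ± 0.17 in N18 and 0.49 ± 0.20 on the AtT20-labelled plates (SD, n = 4 each). Kiss1, Cort, Gnrh1 and Ins2 were detected in the 3 lines, with mean levels between 0.60 and 1.61.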
